A study of Mus musculus with 3 samples.

Results

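The genes described here are 40 cell cycle genes, chosen by name and matched to 40 of the 31053 genes listed in each of 3 single-cell libraries. Of them, 7 act in S phase: Mcm2 to Mcm7 encode the subunits of the ring helicase that opens replication origins, and Pcna encodes the sliding clamp that holds DNA polymerase on its template. Another 5 serve nucleotide supply or the replication fork: Rrm1, Rrm2, Tyms and Tk1 encode enzymes of deoxynucleotide synthesis and Pclaf encodes a clamp-binding protein. A further 26 are mitotic genes: the proliferation marker Mki67 and the topoisomerase Top2a, 9 kinases, checkpoint genes and cyclins (Cdk1, Ccna2, Ccnb1, Ccnb2, Aurka, Aurkb, Plk1, Bub1, Bub1b), 3 genes of regulated protein destruction (Ube2c, Cdc20, Cdca3), 6 genes of the centromere and the chromosomal passenger complex (Birc5, Cdca8, Cenpa, Cenpe, Cenpf, Spc25) and 6 of the spindle and of cytokinesis (Kif11, Kif23, Tpx2, Nusap1, Prc1, Ckap2l). The last 2, Stmn1 and Hmgb2, encode a tubulin-binding protein and a chromatin protein that are also made in cells that do not divide. The set was chosen by function, with earlier results of these data known.

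The libraries hold stromal and vascular cells of mouse inguinal adipose tissue, a subcutaneous white fat depot, captured with 3′ tag chemistry after removal of dead cells and red blood cells. One library is labelled TERT +/+ (called wild type below; its title also carries the letters PBS, which the labels do not explain). Another is labelled Pdgfra-Cre; TERT fl/fl and the remaining one Pdgfrb-Cre; TERT fl/fl, in which Cre recombinase, driven by a platelet-derived growth factor receptor promoter, acts on both floxed copies of Tert, the gene for the catalytic subunit of telomerase. Each genotype has 1 library. The sources used here do not give the age and sex of the mice, how many animals a library pools or whether the wild-type mice carried a Cre allele. Cre acts in cells that use its promoter and in their descendants, so lineages that use neither promoter, such as lymphocytes and blood endothelium, carry the genotype label of the mouse without necessarily carrying the deletion. With 1 library per genotype there is no test between genotypes: the 95% intervals below are exact (Clopper-Pearson for shares of cells, Poisson for summed counts, conditional binomial for ratios) and cover counting error only, and differences between mice, dissections and library preparations cannot be told apart from the genotype.

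A dividing cell licenses its origins with the Mcm ring in G1, copies its DNA in S phase and then makes the kinases, cyclins and spindle proteins of G2 and mitosis. S-phase genes are largely under the control of E2F transcription factors, whereas mitotic genes are held down in resting cells by the DREAM complex, which binds a cell cycle homology region, and are raised with the help of NF-Y at CCAAT boxes. Most stromal cells of adult fat are at rest, and adipose progenitors are known to divide when the depot grows. Mitotic transcripts peak in G2 and mitosis, whereas Pcna also serves DNA repair and is made at some level in cells that do not divide.

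RefSeq promoters (GRCm38.p6) were matched for 35 of the 40 members, leaving out Mcm4, Ccna2, Aurkb, Tpx2 and Stmn1, and 3 motifs were searched on both strands in the 250 bases before the RefSeq start. The cell cycle homology region was written as TTTGAA, which the other strand reads as TTCAAA, the CCAAT box as CCAAT, which the other strand reads as ATTGG, and the E2F site as TTTGGCGC, TTTCCCGC, TTTGCCGC or TTTCGCGC; the first and the last of these can overlap each other when read on opposite strands. TTTGAA lay before 8 of 23 mitotic members (34.8%), 1 of 6 S-phase members (16.7%, Mcm2) and 0 of 5 supply members, against 16.3% of all 27025 promoters in the table. CCAAT lay before 21 of 23 mitotic members (91.3%), 6 of 6 S-phase members and 3 of 5 supply members, against 34.5% of all promoters. An E2F site lay before 3 of 6 S-phase members (50%) and 1 of 23 mitotic members (4.35%, Cdk1), against 1.91% of all promoters. The S-phase and supply shares rest on 6 and 5 promoters, and the Clopper-Pearson intervals of S-phase and mitotic members overlap for each motif (E2F 11.8 to 88.2% against 0.11 to 21.9%). In the 100 bases before the start, an E2F site lay before 1 of 6 S-phase members and 0 of 23 mitotic members. All 8 mitotic promoters with TTTGAA also held CCAAT, a pair present in 5.73% of all promoters. A match is a description of these letters in this window and not of a bound factor.

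The next 5 sequences are shown because these genes carry the contrast described below: 4 mitotic members with a TTTGAA match outside the annotated gene, chosen after their values were seen, and Mcm6 as an S-phase member. Each reads 5′ to 3′ on the gene's strand and lies before the gene model of both annotations, and capitals mark every match to 1 of the 3 motifs.
Cdk1, the kinase that drives mitotic entry, chr10:69352939-69353058 (minus strand, with 1 E2F match, 2 CCAAT matches and 1 TTTGAA match): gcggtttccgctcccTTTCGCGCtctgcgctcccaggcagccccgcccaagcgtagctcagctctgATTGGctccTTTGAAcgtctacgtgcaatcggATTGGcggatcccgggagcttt
Top2a, the topoisomerase that untangles sister chromatids, chr11:99024190-99024309 (minus strand, with 3 CCAAT matches and 1 TTTGAA match): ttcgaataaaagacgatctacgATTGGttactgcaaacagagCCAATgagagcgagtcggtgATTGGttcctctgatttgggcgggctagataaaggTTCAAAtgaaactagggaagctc
Ckap2l, a spindle protein, chr2:129297213-129297332 (minus strand, with 2 CCAAT matches and 1 TTTGAA match): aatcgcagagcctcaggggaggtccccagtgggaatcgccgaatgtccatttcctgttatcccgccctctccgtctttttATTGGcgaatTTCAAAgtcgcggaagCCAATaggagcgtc
Mki67, a coat protein of mitotic chromosomes, chr7:135716380-135716499 (minus strand, with 2 TTTGAA matches): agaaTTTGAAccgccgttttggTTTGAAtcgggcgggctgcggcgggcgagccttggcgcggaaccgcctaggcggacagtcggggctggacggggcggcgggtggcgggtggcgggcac
Mcm6, a subunit of the replicative helicase, chr1:128359706-128359825 (minus strand, with 3 E2F matches, of which the first 2 overlap on opposite strands, and 2 CCAAT matches): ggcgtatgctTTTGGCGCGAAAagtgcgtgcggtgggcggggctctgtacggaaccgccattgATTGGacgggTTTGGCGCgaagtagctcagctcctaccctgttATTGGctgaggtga

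The libraries differed in depth and yield. The wild-type, Pdgfra-Cre and Pdgfrb-Cre libraries held 4124, 2310 and 4355 barcodes, of which 2668, 1409 and 3903 passed the filters, with median totals of 3321, 7522 and 5675 unique molecular identifiers (UMIs, 1 per captured transcript). Every cell was thinned at random to 1000 UMIs, which left 2475, 1370 and 3876 cells; 193, 39 and 27 shallower cells were left out. Between 1 and 5 barcodes were shared by each pair of libraries. Tert gave 14, 7 and 10 UMIs in all kept cells and 3, 4 and 1 in stroma; 3′ tags need not cover the floxed exons, which the labels do not name, and these counts say nothing of recombination. Cells were grouped without the 40 genes or other cell cycle genes, and each cluster was named from lineage markers. In each library 10 or 11 of 11 stromal markers were each detected in at least 10% of the cells of stroma, 11 or 12 of 12 T cell markers in T-like cells and 8 of 8 endothelial markers in endothelium. The name dendritic-like was weaker, with 5 of 10 markers at that level in the wild type and 6 of 10 in the Pdgfrb-Cre library. Ptprc, the pan-leukocyte gene, was detected in 40.5% of the wild-type dendritic-like cells.

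A cell was called mitotic when at least 3 of the 26 mitotic members had a UMI among its 1000. By this count 110 of the 2475 wild-type cells were mitotic (4.44%, interval 3.67 to 5.33%), against 7 of 1370 in the Pdgfra-Cre library (0.511%, 0.206 to 1.05%) and 51 of 3876 in the Pdgfrb-Cre library (1.32%, 0.981 to 1.73%). In the wild type the share was highest in plasma-like cells (29 of 68), followed by stromal-progenitor-like cells (29 of 217), unnamed clusters (6 of 86), macrophage-like cells (8 of 119), endothelial-like cells (19 of 456), NK-like cells (1 of 37), T-like cells (14 of 651), dendritic-like cells (1 of 84) and B-like cells (3 of 613). The intervals of neighbours in this order overlap from stroma down. Mural-like cells, the pericytes and smooth muscle of vessels, gave 0 of 116 in the wild type. That allows a share of up to 2.59% by the limit of 3 counts and 3.13% by the Clopper-Pearson interval. Their median was 2474 UMIs, their summed mitotic level 121 CPM, and the leukocyte gene Ptprc was detected in 10.3% of them. The part of free RNA in the shares was not tested.

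**Figure D1:**
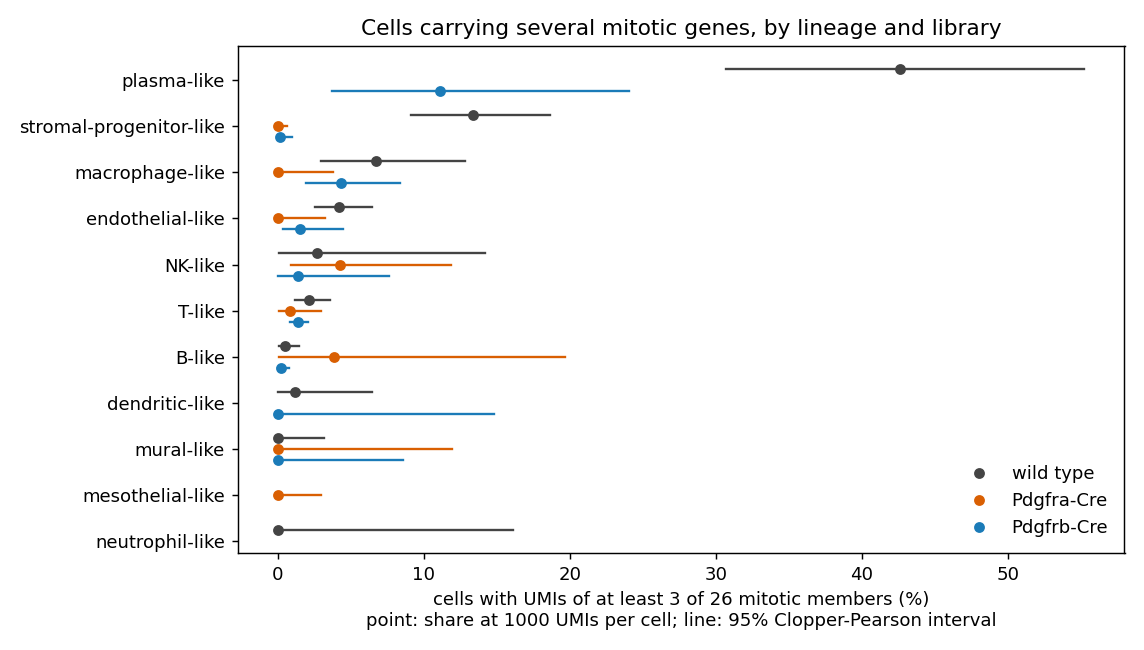
Share of cells (percent, x axis) with a UMI for at least 3 of the 26 mitotic members after thinning to 1000 UMIs, by lineage (rows) and library (colours); lines are 95% Clopper-Pearson intervals. Plasma-like cells stand highest at 42.6% in the wild type, and wild-type stroma at 13.4% lies apart from both Cre libraries at 0% and 0.177%.

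Stromal-progenitor-like cells carried the clearest contrast. In the wild type 29 of 217 cells were mitotic (13.4%, 9.14 to 18.6%). None of 607 was in the Pdgfra-Cre library, which allows a share of up to 0.494% by the limit of 3 counts and 0.606% by the Clopper-Pearson interval, and 1 of 565 was in the Pdgfrb-Cre library (0.177%, 0.00448 to 0.982%). The intervals of both Cre libraries lie below that of the wild type. The distribution within the wild type was all or none: 174 cells had a UMI for none of the mitotic members, 13 for 1, 1 for 2 and 29 for 3 to 7. In the Pdgfra-Cre library 596 cells had none and 11 had 1. In the Pdgfrb-Cre library 551 had none, 13 had 1 and a single cell had 4. The 29 cells held 91.9% of the mitotic UMIs of wild-type stroma.

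The summed level of the 26 mitotic members in stroma was 857 UMIs per 1000000 (CPM; 738 to 990, 186 UMIs) in the wild type. It was 18.1 CPM (9.05 to 32.4, 11 UMIs) in the Pdgfra-Cre library and 30.1 CPM (17.5 to 48.2, 17 UMIs) in the Pdgfrb-Cre library. The wild-type level was thus 47.3-fold above the Pdgfra-Cre level (25.8 to 96.4) and 28.5-fold above the Pdgfrb-Cre level (17.3 to 50). Both ratios share the wild-type library and are not independent of each other. Outside mitotic cells the mitotic level was 79.8 CPM in the wild type, 18.1 CPM in the Pdgfra-Cre and 23.0 CPM in the Pdgfrb-Cre library. The S-phase members did not follow: their summed level was 111 CPM (70.9 to 165) in the wild type, 112 CPM (87.0 to 142) in the Pdgfra-Cre library and 103 CPM (78.0 to 133) in the Pdgfrb-Cre library. Their log2 ratios to the wild type were 0.02 (-0.67 to 0.75) and -0.11 (-0.82 to 0.64), and a difference within these bounds was not detectable at this depth. As a share of the UMIs of both groups together, S-phase members made up 11.4% (7.46 to 16.5%) in the wild type, 86.1% (76.5 to 92.8%) in the Pdgfra-Cre library and 77.3% (66.2 to 86.2%) in the Pdgfrb-Cre library.

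Within the S-phase group the Mcm genes and Pcna went opposite ways. The 6 Mcm genes summed to 82.9 CPM (49.2 to 131) in wild-type stroma, 44.5 CPM in the Pdgfra-Cre and 42.5 CPM in the Pdgfrb-Cre library, log2 ratios of -0.90 (-1.81 to 0.05) and -0.97 (-1.91 to 0.00), both reaching 0. Pcna had 6 UMIs (27.6 CPM) in the wild type, 41 (67.5 CPM) in the Pdgfra-Cre and 34 (60.2 CPM) in the Pdgfrb-Cre library. It was 2.44-fold higher in the Pdgfra-Cre library (1.03 to 7.04) and 2.18-fold higher in the Pdgfrb-Cre library (0.903 to 6.34), an interval that includes 1. Mcm5 stood at 13.8 CPM from 3 UMIs in the wild type and at 1.65 and 1.77 CPM, 1 UMI each, in the Cre libraries. The single Mcm genes rest on too few UMIs to be told apart.

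The nucleotide supply genes resembled the mitotic genes in their sum, but not in every member. Their sum was 207 CPM (151 to 277) in wild-type stroma against 46.1 CPM in the Pdgfra-Cre and 53.1 CPM in the Pdgfrb-Cre library, log2 ratios of -2.17 (-2.90 to -1.46) and -1.97 (-2.68 to -1.27). Pclaf (chr9) accounted for much of it, with 21 UMIs (96.8 CPM) in the wild type, 2 (3.29 CPM) in the Pdgfra-Cre library and 0 in the Pdgfrb-Cre library. That is 29.4-fold lower (7.18 to 258) in the first and at least 18.2-fold lower, against a floor of 3 counts, in the second. Rrm1, the large subunit of ribonucleotide reductase, differed little: 41.5 CPM in the wild type, 29.7 CPM in the Pdgfra-Cre and 42.5 CPM in the Pdgfrb-Cre library. Its partner Rrm2, the subunit made mainly in S phase, stood at 13.8, 1.65 and 0 CPM, and Tk1, the salvage thymidine kinase, at 32.3, 0 and 0 CPM.

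Every functional class of mitotic gene was high in wild-type stroma. The kinases, checkpoint genes and cyclins summed to 230 CPM in the wild type, 3.29 CPM in the Pdgfra-Cre and 5.31 CPM in the Pdgfrb-Cre library. Cdk1 (chr10:69335146-69352938, GENCODE M21) had 22 UMIs (101 CPM) in the wild type and 0 in both Cre libraries, at least 20.5-fold and 19.1-fold lower. The promoter of Cdk1 is the one printed above that holds all 3 motifs. The destruction genes summed to 143 CPM in the wild type against 0 and 5.31 CPM. Ube2c (chr2:164769898-164778822), the ubiquitin-conjugating enzyme of the anaphase-promoting complex, led them with 23 UMIs (106 CPM), 0 UMIs in the Pdgfra-Cre library (at least 21.4-fold lower) and 1 UMI (1.77 CPM) in the Pdgfrb-Cre library (59.9-fold lower, 9.72 to 2467). Cdc20, the activator of the same complex, had 7 UMIs in the wild type and none in either Cre library.

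The centromere and passenger genes summed to 184 CPM in wild-type stroma, 3.29 CPM in the Pdgfra-Cre and 7.08 CPM in the Pdgfrb-Cre library. Birc5, which encodes survivin, had 10, 0 and 2 UMIs in that order. The kinetochore genes Cenpf and Cenpe had 7 and 6 UMIs in the wild type and none in the Cre libraries. Spindle and cytokinesis genes summed to 207 CPM against 11.5 and 7.08 CPM. Prc1, which bundles the microtubules of the central spindle, and Ckap2l each had 11 UMIs (50.7 CPM) in the wild type and 0 elsewhere. Nusap1, a microtubule-binding protein, kept 4 UMIs in the Pdgfra-Cre and 2 in the Pdgfrb-Cre library beside 8 in the wild type. Mki67 had 9, 0 and 2 UMIs (41.5, 0 and 3.54 CPM; at least 8.39-fold lower and 11.7-fold lower, 2.43 to 111). Top2a had 11, 0 and 1 UMIs (50.7, 0 and 1.77 CPM; at least 10.3-fold lower and 28.6-fold lower, 4.16 to 1230). In each of these classes the interval of the wild-type sum lay above those of both Cre libraries.

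**Figure D2:**
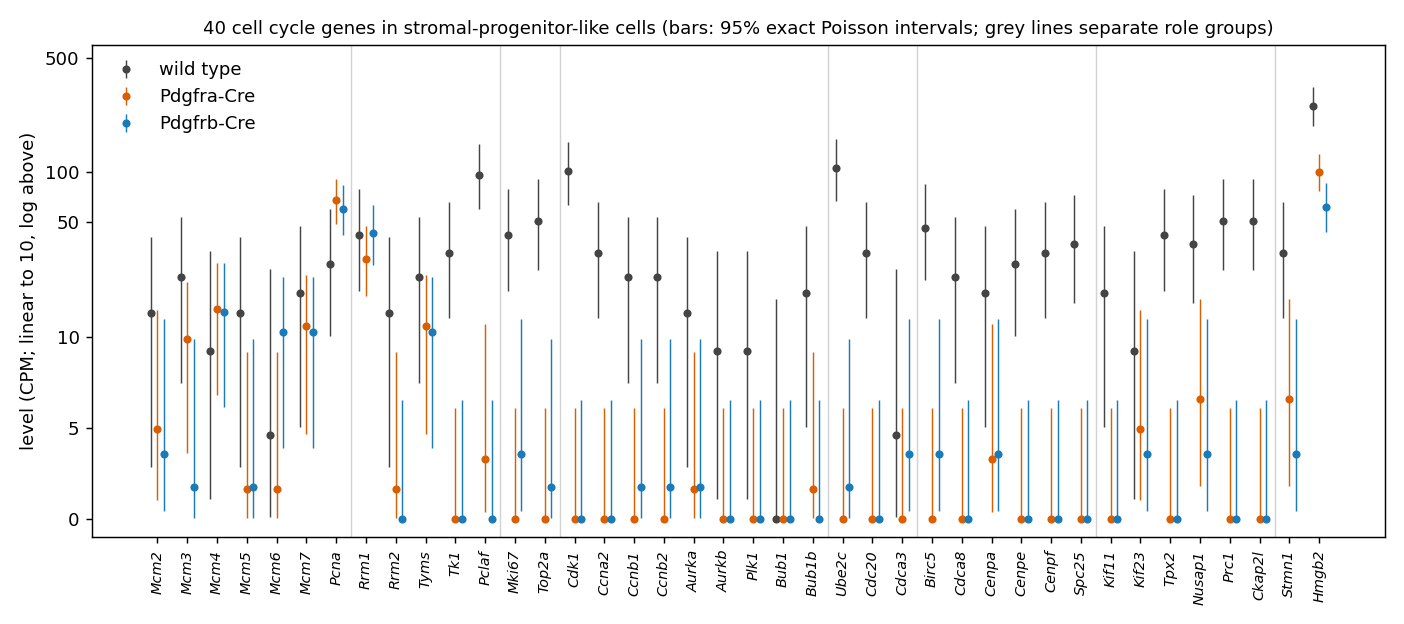
Level of each of the 40 genes (CPM, y axis, linear to 10 and logarithmic above) in stromal-progenitor-like cells of the 3 libraries (colours), with the genes along the x axis ordered by role and 95% Poisson lines. Among the mitotic genes of the wild type Ube2c and Cdk1 stand highest at 106 and 101 CPM, most mitotic genes of the Cre libraries lie at or near 0, and Pcna is lower in the wild type (27.6 CPM) than in both.

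Gene by gene, a ratio was formed on log2 CPM with 10 CPM added for every gene with a mean of at least 10 CPM over the wild-type and the Cre library, and a gene was counted as lower or higher past 2-fold. In the Pdgfra-Cre stroma 29 of the 40 members reached that level; 23 were lower, beside 9.15% of all 8365 genes, and 1, Pcna, was higher, beside 12% of all. In the Pdgfrb-Cre stroma 28 reached it; 23 were lower, beside 9.47% of all 8018 genes, and 0 were higher, beside 9.55% of all. Of the members tested, 23 and 22 reached the minimum on their wild-type level only and had to be lower, so the counts describe these libraries and support nothing further. Without a filter, the median log2 ratio of all 40 was -1.42 and -1.51. Over all genes tested, which had to reach the minimum level, it was 0.07 and -0.04, so the sets are unlike. With members at 0 set to the floor of 3 counts the median was -2.60 over 30 members in the Pdgfra-Cre and -2.60 over 31 in the Pdgfrb-Cre library. That is a further measure, on fewer members. The mitotic members at 0 UMIs were 21 of 26 in the Pdgfra-Cre library and 15 of 26 in the Pdgfrb-Cre library, and 1, Bub1, in the wild type.

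Hmgb2 and Stmn1, which resting cells can also make, differed less than the mitotic sum. Hmgb2 stood at 253 CPM in wild-type stroma, 100 CPM in the Pdgfra-Cre library (2.52-fold lower, 1.72 to 3.69) and 61.9 CPM in the Pdgfrb-Cre library (4.09-fold lower, 2.63 to 6.44). Stmn1 had 7, 4 and 2 UMIs (4.90-fold lower, 1.24 to 22.8, and 9.11-fold lower, 1.74 to 89.9), a difference as large as that of some mitotic members. Within wild-type stroma it stood at 241 CPM in the mitotic cells and at 0 in the others, so it was not seen in resting cells there.

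The stromal cells compared were not of the same kind or depth. All 29 mitotic wild-type cells lay in 1 cluster, led by Col1a1, Pi16 and Col3a1, where they made up 29 of 189 cells (15.3%, 10.5 to 21.3%). That cluster held 0 mitotic cells among 10 of the Pdgfra-Cre and 22 of the Pdgfrb-Cre library; the intervals reach 30.8% and 15.4% (30% and 13.6% by the limit of 3 counts) and overlap that of the wild type, so within this cluster a difference was not detectable at these numbers. Most Pdgfra-Cre stroma lay in a cluster led by Sult1e1 and Inmt (0 of 574 mitotic). Most Pdgfrb-Cre stroma lay in a cluster led by Has1 and Dmkn (0 of 325) and in one led by Mmp3 and Cxcl14 (1 of 215), in which the wild type had 0 of 28. Before thinning, the median stromal cell had 1933 UMIs in the wild type against 9726 and 10553 in the Cre libraries. Without thinning the mitotic shares were 16.1, 0.329 and 0.177%. Transcripts of leukocytes were also more frequent in wild-type stroma: Ptprc, the pan-leukocyte gene, was detected in 21.2% of its thinned cells, against 1.65% and 4.25%. The B cell gene Cd79a stood there at 31.9 CPM against 2.46 and 6.77 CPM, and Cd3e of T cells at 24.8 CPM against 0.352 and 4.62 CPM.

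The 29 mitotic wild-type stromal cells kept the collagen genes of their lineage. Over all their UMIs (median 2480 per cell, against 1796 in the other 188), Col3a1 was detected in 29 of 29, Col1a1 in 28 of 29, Pdgfra in 18 and Dpp4 in 7. Ptprc was detected in 5 of 29 (17.2%) and in 21.8% of the other 188, and Lyz2, C1qa, Cd3e and Pecam1, which mark macrophages, T cells and endothelium, in 0 of 29. These markers were rare in the other 188 too, at 6.91, 2.13, 9.04 and 3.72% in that order, so their absence from 29 cells says little. The following genes were chosen after their values were seen. Col1a1 was 2.44-fold higher in the mitotic cells (2.31 to 2.58) and Cthrc1, a secreted gene of matrix-producing fibroblasts, 8.40-fold higher (6.66 to 10.6), detected in 26 of 29 against 29 of 188. Nov, which encodes a matricellular protein, was 13.0-fold higher (10.2 to 16.5), and Gap43, best known from growing axons, was detected in 16 of 29 against 2 of 188. In the other direction, Pi16, the progenitor gene that led the cluster, was detected in 1 of 29 against 120 of 188 (23.2 against 2194 CPM). Gsn, an actin-severing protein, stood at 255 against 10592 CPM and Apoe at 23.2 against 3961 CPM. Pcolce2, Dpep1 and Mgp had 0 UMIs in the 29 cells, against 590, 440 and 430 in the other 188. The progenitor part of the name stromal-progenitor-like thus does not cover these 29 cells well, although their collagen genes were kept. Tyrobp, an adaptor of myeloid and NK receptors, was detected in 16 of 29 against 6 of 188 (44.0-fold, 20.3 to 109), and Irf8, a transcription factor of myeloid and B cells, in 16 against 12. Ly6c2 was detected in 10 of 29 against 15 of 188, Ly6d in 19 against 17, Ccl8 in 24 against 26 and Lgals3 in 24 against 56. Their part in the share of mitotic cells was not tested.

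A list of 132 further cell cycle genes, of which 130 were measured, was followed in the same cells. In mitotic wild-type stromal cells 106 reached a mean of 10 CPM over mitotic and other cells; 90 of them were past 2-fold higher than in the other stromal cells, beside 18.6% of all 8160 genes, and 1 was lower, beside 13.2%. The median log2 ratio of the 130 was 1.73. By list, and here without the minimum level, 12 of 12 kinetochore genes, 12 of 13 genes of mitotic entry and exit and 20 of 21 spindle genes were higher. Of the origin licensing and replication genes 22 of 33 were higher, of the G1 control genes 3 of 9, and of the pocket proteins and E2F factors 1 of 11. Cks2, a subunit of mitotic kinases, stood at 615 against 27.7 CPM (22.2-fold, 13.2 to 38.8) and was detected in 24 of 29 cells. The kinesins Kif20b and Kif22 were 46.9-fold (13.4 to 251) and 57.2-fold (12.9 to 522) higher. Foxm1, the transcription factor of the mitotic programme, had 6 UMIs in the 29 cells and 1 in the other 188.

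The genes of the restriction point gave a different picture in the same cells. Cdkn1a, the inhibitor p21, had 1 UMI in the mitotic and 65 in the other stromal cells (11.6 against 85.7 CPM, a ratio of 0.135, 0.00338 to 0.781). Rb1, the retinoblastoma protein gene, had 0 against 13 UMIs and E2f3 0 against 8, counts too low to set a level. Cyclin D2 and cyclin D3 differed little, with Ccnd2 at 128 against 117 CPM and Ccnd3 at 81.2 against 84.3 CPM. Cdkn1b, the inhibitor p27, stood at 46.4 against 43.5 CPM and E2f1 at 11.6 against 10.5 CPM. In the mitotic cells 11.6 CPM is 1 UMI, so E2f1 is too low to set a level and Cdkn1b rests on few UMIs. Ccnd1 stood at 46.4 against 11.9 CPM (3.91-fold, 0.880 to 14.0). Since mitotic cells were picked by mitotic transcripts, the high lists describe the choice, whereas genes of G1 were not used in it.

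Endothelial-like cells showed the same direction with smaller differences. In the wild type 19 of 456 cells were mitotic (4.17%, 2.53 to 6.43%) and in the Pdgfrb-Cre library 3 of 195 (1.54%, 0.318 to 4.43%). The Pdgfra-Cre library had 0 of 113, which allows up to 2.65% by the limit of 3 counts and 3.21% by the Clopper-Pearson interval. The intervals of these shares overlap, and when cells were clustered with the cell cycle genes the wild-type share was 0.230%. The summed mitotic level was 364 CPM (311 to 424) in the wild type, 35.4 CPM (9.64 to 90.6, 4 UMIs) in the Pdgfra-Cre library and 133 CPM (87.1 to 195, 26 UMIs) in the Pdgfrb-Cre library, 10.3-fold lower (3.94 to 38.2) and 2.73-fold lower (1.80 to 4.30). Of the 26 UMIs, 23 lay in the 3 mitotic cells, so the last interval is too narrow. Outside mitotic cells the level was 162 CPM in the wild type, 35.4 CPM in the Pdgfra-Cre and 15.6 CPM in the Pdgfrb-Cre library. S-phase members again lay close together, at 169, 133 and 159 CPM. The supply genes had log2 ratios of -1.63 (-3.56 to -0.19) and -1.83 (-3.35 to -0.61).

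In Pdgfra-Cre endothelium 17 members reached the minimum level, 6 were lower (Rrm2, Pclaf, Cdk1, Ccnb1, Cenpf and Stmn1, beside 8.45% of all 8010 genes) and 0 higher (beside 7.34%). In the Pdgfrb-Cre library 22 reached it, 6 were lower (Mcm3, Tyms, Pclaf, Cdk1, Ccnb1 and Cenpa, beside 7% of all 8224 genes) and 0 higher (beside 7.3%). Of these, 11 and 7 reached the minimum on their wild-type level only. The median log2 ratio of the 40 was -0.86 and -0.69, beside 0.03 and 0.02 over all genes tested, an unlike set as in stroma. Stmn1 stood at 98.7 CPM in the wild type and 26.5 CPM in the Pdgfra-Cre library (3.72-fold lower, 1.19 to 18.7), and at 51.3 CPM in the Pdgfrb-Cre library. Cdk1 had 19 UMIs (41.7 CPM) in the wild type, 0 in the Pdgfra-Cre and 1 (5.13 CPM) in the Pdgfrb-Cre library (8.12-fold lower, 1.29 to 338). Mki67 had 9, 0 and 3 UMIs. Top2a stood at 15.4, 0 and 5.13 CPM and Mcm5 at 6.58, 0 and 0 CPM. Pcna stood at 74.6, 79.6 and 113 CPM and Hmgb2 at 219, 133 and 159 CPM. Median depth in endothelium was 1989, 4764 and 8243 UMIs, and Ptprc was detected in 14.5, 1.77 and 8.21% of its cells.

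The mitotic endothelial cells lay together. All 19 of the wild type were in the cluster led by Gpihbp1, Timp4 and Car4, genes of capillaries, where they made up 19 of 245 cells (7.76%, 4.73 to 11.8%). The cluster led by the arterial gene Sema3g had 0 of 77 and the cluster led by the venous genes Selp and Ackr1 had 0 of 134. In the Pdgfrb-Cre library the 3 mitotic cells lay in the same capillary-type cluster (3 of 137, 2.19%), which held 0 of 67 in the Pdgfra-Cre library. Cdh5, the cadherin of endothelial junctions, was detected in 18 of the 19 cells and Gpihbp1 in 17, against Col1a1 in 4 and Ptprc in 2. Of the further cell cycle genes 107 reached the minimum level; 89 were past 2-fold higher in the 19 cells than in the other endothelial cells, beside 17.8% of all 8339 genes, and 4 lower, beside 17.6%. The lower genes included Ccnd1 (20.3 against 154 CPM, a ratio of 0.132, 0.00332 to 0.739) and the inhibitor gene Cdkn1c (102 against 407 CPM). Hmmr, which encodes a spindle-associated protein, was 76.5-fold higher (23.8 to 285). Cdkn1a stood at 569 against 253 CPM (2.25-fold, 1.48 to 3.30), whereas in stroma it was lower in the mitotic cells; that difference between the lineages was not tested.

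T-like cells gave mitotic cells in every library. The wild type had 14 of 651 (2.15%, 1.18 to 3.58%), the Pdgfra-Cre library 2 of 242 (0.826%, 0.1 to 2.95%) and the Pdgfrb-Cre library 21 of 1546 (1.36%, 0.843 to 2.07%), and these intervals overlap. The summed mitotic level was 289, 207 and 263 CPM, log2 ratios of -0.48 (-0.96 to -0.03) and -0.14 (-0.39 to 0.12). The direction depended on the processing: without thinning the Pdgfrb-Cre ratio was 0.98. Supply genes differed more, at 181 CPM in the wild type, 45.5 CPM in the Pdgfra-Cre and 53.7 CPM in the Pdgfrb-Cre library, log2 ratios of -2.00 (-3.04 to -1.10) and -1.76 (-2.18 to -1.34). Rrm2 accounted for a large part, at 55.3, 4.13 and 5.82 CPM (13.4-fold lower, 2.25 to 543, and 9.50-fold lower, 4.49 to 22.4). Pclaf stood at 43.0, 4.13 and 11.6 CPM and Mcm3 at 55.3, 12.4 and 24.6 CPM.

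Of 19 members that reached the minimum in Pdgfra-Cre T-like cells 5 were lower (Mcm3, Mcm7, Rrm2, Pclaf and Mki67, beside 4.62% of all 6817 genes) and 0 higher (beside 9.71%). In the Pdgfrb-Cre library 19 reached it, 2 were lower (Rrm2 and Pclaf, beside 7.34% of all 6352 genes) and 2 higher (Cenpa and Kif23, beside 5.79%). Rrm2, Pclaf and Mki67 stood under 10 CPM in the Pdgfra-Cre library, and Rrm2 also in the Pdgfrb-Cre library. In those comparisons they reached the minimum on their wild-type level only and had to be lower. Cenpa, the histone variant that marks centromeres, stood at 33.8, 37.2 and 97.0 CPM (2.87-fold higher in the Pdgfrb-Cre library, 1.83 to 4.72). Kif23, a motor of the central spindle, stood at 15.4, 28.9 and 45.3 CPM (2.95-fold, 1.51 to 6.41). Mki67 stood at 24.6, 0 and 12.3 CPM and Top2a at 53.8, 37.2 and 28.5 CPM. Mcm5 stood at 18.4, 16.5 and 11 CPM and Pcna at 114, 128 and 147 CPM. With Cenpa and Kif23 left out, a choice made after their values were seen, the mitotic log2 ratios were -0.77 in the Pdgfra-Cre and -0.99 (-1.31 to -0.68) in the Pdgfrb-Cre library.

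The cluster led by Ctla4, Tnfrsf4 and Foxp3, genes of regulatory T cells, held 8 of the 14 mitotic wild-type T-like cells (8 of 169, 4.73%) and 12 of the 21 in the Pdgfrb-Cre library (12 of 217, 5.53%). The cluster led by Cd8b1 and Ccl5 gave 0 of 56, 1 of 206 and 9 of 552. The large cluster led by Lef1 and Satb1, genes of resting T cells, held 753 Pdgfrb-Cre cells of which 0 were mitotic. Depth went apart in the mitotic cells: the 14 wild-type cells had a median of 1696 UMIs against 5261 in the other wild-type T-like cells, and Cd3e was detected in 5 of them. The 21 Pdgfrb-Cre cells had a median of 24549 UMIs against 6334, and Cd3e was detected in 20. T cell markers were thus seen in fewer of the wild-type mitotic cells, at a lower depth. In the 21 Pdgfrb-Cre cells 106 of the further cell cycle genes reached the minimum level; 89 were past 2-fold higher than in the other T-like cells, beside 22.5% of all 6388 genes, and 3 lower, beside 7.56%. In the 14 wild-type cells 67 of 93 were higher, beside 29.5% of all 6503 genes, and 4 lower, beside 16.3%. The 3 lower genes of the Pdgfrb-Cre cells were Cdkn1a (50.4 against 163 CPM), Ccnd2 (90.4 against 257 CPM) and Myc.

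B-like cells gave few mitotic cells. The wild type had 3 of 613 mitotic cells (0.489%, 0.101 to 1.42%) and the Pdgfrb-Cre library 2 of 945 (0.212%, 0.0256 to 0.762%), intervals that overlap; without thinning the shares were 1.31 and 1.48%. The summed level was 139 and 293 CPM, a log2 ratio of 1.08 (0.72 to 1.45). Of 13 members that reached the minimum 0 were lower (beside 5.98% of all 6418 genes) and 4 higher (Pcna, Cenpa, Kif23 and Stmn1, beside 6.96%). Cenpa stood at 58.7 CPM in the wild type and 201 CPM in the Pdgfrb-Cre library (3.42-fold higher, 2.39 to 5.04). Kif23 stood at 8.16 and 38.1 CPM (4.67-fold, 1.83 to 15.2). Together the pair made up 48.2% of the mitotic UMIs of wild-type B-like cells and 81.6% of those of the Pdgfrb-Cre library. Without them the log2 ratio was -0.41 (-1.02 to 0.20). Pcna stood at 39.2 and 134 CPM (3.43-fold higher, 2.21 to 5.55), Stmn1 at 26.1 and 78.3 CPM and Top2a at 16.3 and 16.9 CPM. Mcm4 stood at 26.1 and 12.7 CPM, Mcm5 at 21.2 and 14.8 CPM and Mcm7 at 29.4 and 26.5 CPM. The 2 libraries' B-like cells lay mostly in different clusters, one led by Ighd in the wild type and one led by H2-Eb1 and Cd83 in the Pdgfrb-Cre library. The Pdgfra-Cre library had 26 such cells and was not compared.

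Cenpa and Kif23 were the mitotic members found least often in mitotic cells. Over all libraries, the share of a gene's UMIs that lay in cells with at least 3 other mitotic members had a median of 61.1% over the 26 mitotic genes (range 4.72 to 80.0%), 41.4% over the supply genes (12.6 to 61.1%) and 11.6% over the S-phase genes (6.44 to 18.9%). The medians differed between libraries, at 62% in the wild type and 50% in the Pdgfrb-Cre library for mitotic genes, 36.1 and 51.4% for supply genes and 18.1 and 6.45% for S-phase genes. Cenpa lay at 4.72% of 551 UMIs (3.11 to 6.84%) and Kif23 at 5.64% of 195 UMIs (2.85 to 9.87%), in the range of Pcna (6.44% of 808 UMIs). Aurka, the centrosomal kinase, was also low at 13.8% of 29 UMIs. At the other end stood Bub1 with 80.0% of 15 UMIs and Plk1 with 75.0% of 12, both thin. Ube2c with 73.0% of 100, Cdk1 with 66.7% of 87, Mki67 with 61.0% of 136 and Pclaf with 61.1% of 203 UMIs rested on more counts. Top2a was lower at 37.3% of 225 UMIs, Stmn1 at 30.8% of 549 and Hmgb2 at 20.2% of 2310. Most UMIs of Cenpa and Kif23 in these libraries therefore came from cells in which no 3 other mitotic members were seen.

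**Figure D3:**
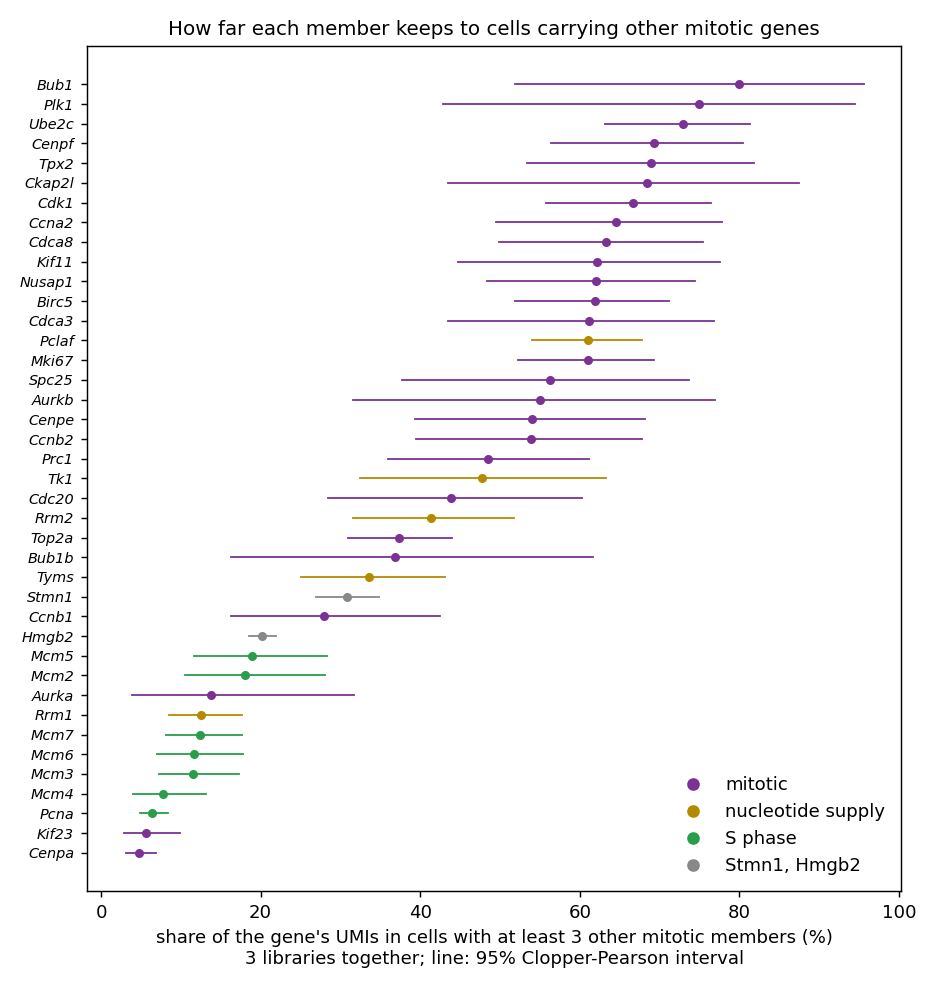
Share of each gene's UMIs (percent, x axis) that lay in cells with a UMI for at least 3 other mitotic members, over the thinned cells of all 3 libraries, sorted by that share and coloured by role, with 95% Clopper-Pearson lines. Most mitotic genes lie near the group median of 61.1%, whereas Cenpa at 4.72% and Kif23 at 5.64% lie with Pcna at 6.44%.

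Macrophage-like cells were mitotic in the wild type and the Pdgfrb-Cre library at overlapping shares, 8 of 119 (6.72%, 2.95 to 12.8%) and 8 of 184 (4.35%, 1.90 to 8.39%). The Pdgfra-Cre library had 0 of 95, which allows up to 3.16% by the limit of 3 counts and 3.81% by the Clopper-Pearson interval. The summed mitotic level was 580 CPM in the wild type, 94.7 CPM in the Pdgfra-Cre and 402 CPM in the Pdgfrb-Cre library, and the Pdgfrb-Cre log2 ratio was -0.53 (-1.02 to -0.03), which without thinning was 0.38. Of 28 members that reached the minimum in the Pdgfrb-Cre comparison 9 were lower (Rrm2, Tk1, Pclaf, Mki67, Cdk1, Ccnb1, Aurkb, Cdca8 and Nusap1, beside 15.7% of all 7396 genes) and 2 higher (Pcna and Ube2c, beside 13.5%). Pcna stood at 42.0 and 141 CPM (3.36-fold higher, 1.27 to 11.2). Mki67 stood at 75.6 and 21.7 CPM, Top2a at 42.0 and 54.3 CPM and Mcm5 at 16.8 and 10.9 CPM. Cenpa stood at 92.4 and 125 CPM, Stmn1 at 92.4 and 136 CPM and Hmgb2 at 269 and 217 CPM.

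The mitotic cells behind these numbers were of different kinds. In the wild type 7 of the 8 lay in the cluster led by Retnla and C1qa (7 of 33 cells, 21.2%, 8.98 to 38.9%), and C1qa, a complement gene of tissue macrophages, was detected in 7 of the 8. In the Pdgfrb-Cre library all 8 lay in the other macrophage-like cluster (8 of 146, 5.48%), C1qa was detected in none, and at least 1 of the dendritic cell genes Flt3, Batf3, Xcr1, Clec9a and Cd209a was detected in 7 of the 8, against 0 of 8 in the wild type. The name macrophage-like does not cover those 8 cells well, and the ratio between the libraries compares different cells. Of the further cell cycle genes 74 of 85 were past 2-fold higher and 5 lower in the wild-type mitotic cells than in the other macrophage-like cells, beside 32.5% and 37.1% of all 6466 genes. In the Pdgfrb-Cre library 60 of 90 were higher and 4 lower, beside 8.05% and 19.7% of all 6980 genes.

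Plasma-like cells, the cluster led by Jchain, Ighg1 and Igkc, carried the highest levels of most members. In the wild type 29 of 68 were mitotic (42.6%, 30.7 to 55.2%) and in the Pdgfrb-Cre library 5 of 45 (11.1%, 3.71 to 24.1%). The summed mitotic level was 3132 CPM (2726 to 3582) against 1133 CPM (844 to 1490). The S-phase level was 1088 CPM (854 to 1366) against 133 CPM (48.9 to 290, 6 UMIs). Depth differed widely, with a median of 2178.5 UMIs in the wild type and 24094 in the Pdgfrb-Cre library. Without thinning the mitotic shares were 60.3 and 37.8%. With under 100 cells in each library no ratio was formed for single genes. Among 27 combinations of lineage and library with at least 20 cells, 30 of the 40 members were highest in wild-type plasma-like cells and 4 in those of the Pdgfrb-Cre library. Ckap2l was highest in wild-type stroma, and Pclaf, Cdk1, Ube2c, Cdc20, Tpx2 and Bub1b were second there. In wild-type plasma-like cells Mki67 stood at 500 CPM, Top2a at 353 CPM, Ube2c at 176 CPM and Cdk1 at 132 CPM. Among the S-phase and supply genes Pclaf stood at 824 CPM, Pcna at 309 CPM, Mcm7 at 221 CPM and Mcm5 at 162 CPM. The cluster's name is weak in the wild type: 3 of 7 plasma cell markers reached 10% of its wild-type cells, against 7 of 7 in the Pdgfrb-Cre library. Among its 29 mitotic wild-type cells Cd79a was detected in 24, Jchain in 22 and Mzb1 in 21, and Bcl6, a transcription factor of germinal centre B cells, in 10. Of the further cell cycle genes 73 of 117 were past 2-fold higher and 2 lower in the mitotic than in the other wild-type plasma-like cells, beside 12.1% and 4.88% of all 6787 genes. Of those in the Pdgfrb-Cre library 77 of 94 were higher and 0 lower, beside 42.4% and 3.9% of all 5594 genes.

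The remaining lineages were thin. NK-like cells were mitotic in 1 of 37, 3 of 71 and 1 of 71 cells, at mitotic levels of 351, 465 and 394 CPM. Mural-like cells gave no mitotic cell in any library (0 of 116, 0 of 29 and 0 of 41), at 121, 34.5 and 97.6 CPM. Mesothelial-like cells, found in the Pdgfra-Cre library, gave 0 of 123 at 16.3 CPM. That allows a share of up to 2.44% by the limit of 3 counts and 2.95% by the Clopper-Pearson interval. An unnamed cluster led by Il17f and Il17a held 9 of the mitotic cells of the Pdgfrb-Cre library (9 of 158), and another unnamed cluster 5 of those of the wild type (5 of 69).

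Across the lineages compared between libraries the S-phase level moved over a narrower range than the mitotic level. Plasma-like cells, which were too few to be compared, went the other way. Their S-phase sum was 1088 against 133 CPM in the wild-type and Pdgfrb-Cre libraries, and their mitotic sum 3132 against 1133 CPM. Among the lineages compared between libraries, the S-phase sum lay between 103 CPM (Pdgfrb-Cre stroma) and 309 CPM (wild-type T-like cells) and the mitotic sum between 18.1 CPM (Pdgfra-Cre stroma) and 857 CPM (wild-type stroma). The Mcm content of the mitotic cells themselves was taken over all UMIs of each cell. In mitotic wild-type stroma the Mcm genes had 16 UMIs (186 CPM, 106 to 301), 2.90% of the Mcm and mitotic UMIs together (1.67 to 4.67%). In mitotic wild-type endothelium the same share was 6.56% (3.87 to 10.3%). In mitotic T-like cells it was 16.3% in the wild type (11.7 to 21.8%) and 16.3% in the Pdgfrb-Cre library (15.1 to 17.5%), and in plasma-like cells it was 11.3% (9.88 to 12.7%) and 12.5% (9.39 to 16.3%). Over all UMIs, and so over unequal depths, the interval for stroma lies below those of T-like and plasma-like cells. With cells thinned to 1000 UMIs the stromal share was 2.84% (0.929 to 6.50%), and the shares were 20% (12.3 to 29.8%) and 11.5% (6.55 to 18.2%) in wild-type and Pdgfrb-Cre T-like cells. At that depth plasma-like cells gave 10.3% (6.56 to 15.2%) in the wild type but 2.50% (0.0633 to 13.2%) in the Pdgfrb-Cre library, which overlaps stroma, as does endothelium at 10.4% (5.30 to 17.8%). An S-phase UMI was present in 9 of the 29 mitotic stromal cells (31.0%) and in 13 of the other 188 (6.91%).

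**Figure D4:**
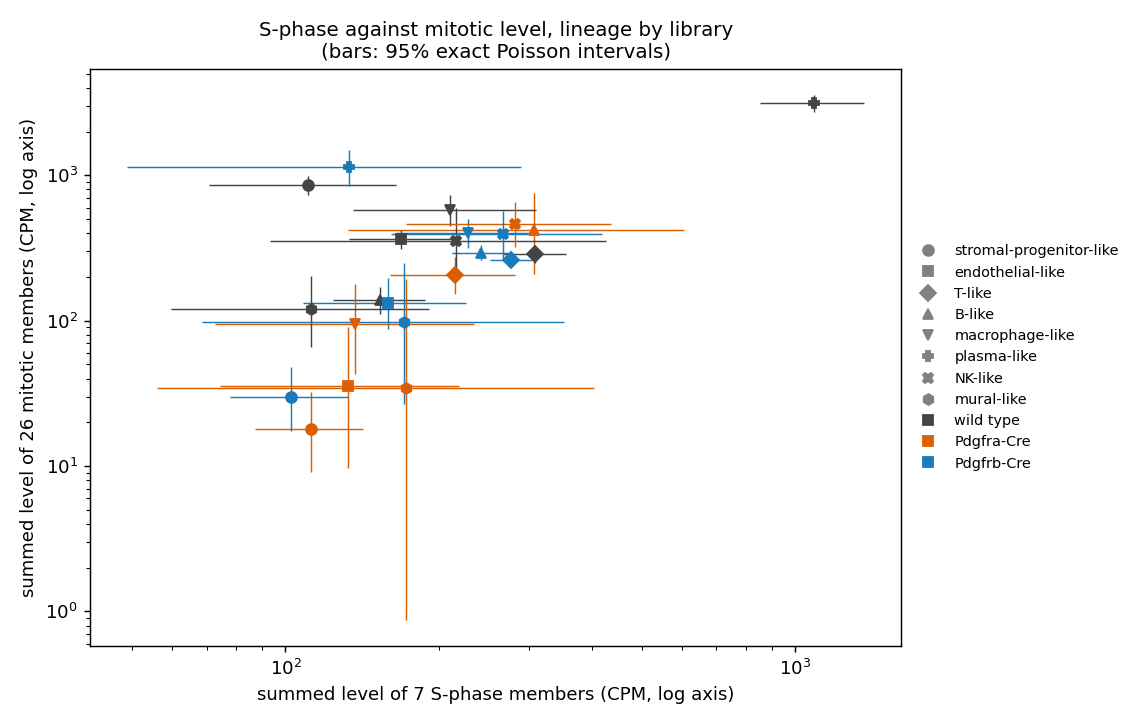
Summed level of the 26 mitotic genes (CPM, y axis, log scale) against that of the 7 S-phase genes (CPM, x axis, log scale) for each lineage (shape) and library (colour), with 95% Poisson bars. The 3 stromal points (circles) lie close together along the S-phase axis, at 111, 112 and 103 CPM, and spread from 18.1 to 857 CPM along the mitotic axis.

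Set side by side, the 8 comparisons with the wild type (5 lineages) gave summed mitotic log2 ratios of -5.56 and -4.83 in stroma, -3.36 and -1.45 in endothelium, -0.48 and -0.14 in T-like cells, 1.08 in B-like cells and -0.53 in macrophage-like cells, where pairs give the Pdgfra-Cre library first. The supply genes had ratios with intervals below 0 in all 8, the least in B-like cells at -0.96 (-1.81 to -0.12). The Mcm sum was lower in 8 of 8 and Pcna higher in 8 of 8, but most of these intervals reached 0: those of Pcna lay above it in Pdgfra-Cre stroma and in the Pdgfrb-Cre B-like and macrophage-like cells, and those of the Mcm sum lay below it in the T-like cells of both Cre libraries, at -1.17 (-1.91 to -0.50) and -0.59 (-0.91 to -0.25). All 8 use the wild-type library, so its own levels enter each of them. The further cell cycle genes were counted in the same way. Of those that reached the minimum level in stroma 19 of 56 were lower and 3 higher in the Pdgfra-Cre library, and 21 of 54 lower and 3 higher in the Pdgfrb-Cre library, with a median over all 130 of -0.55 in each. These counts stand beside 9.15% and 9.47% of all genes lower, and 12% and 9.55% higher, in the same comparisons. Some of the lower genes, such as Incenp, Racgap1, E2f3 and Mastl, stood under 10 CPM in both Cre libraries. They reached the minimum on their wild-type level only and had to be lower, so the counts describe these libraries and support nothing further. Cdkn1a, the inhibitor p21, was higher in both, at 50.7 CPM in wild-type stroma, 339 CPM in the Pdgfra-Cre library (6.69-fold, 3.66 to 13.6) and 492 CPM in the Pdgfrb-Cre library (9.71-fold, 5.34 to 19.7). It was also higher in the other 6 comparisons with intervals above 1, between 3.32-fold (2.56 to 4.33) in Pdgfrb-Cre endothelium and 7.21-fold (3.34 to 18.5) in macrophage-like cells. Myc, a transcription factor of growth, was the other gene higher in both stromal comparisons, joined by Pttg1 (securin) in the Pdgfra-Cre and Ccnd1 in the Pdgfrb-Cre library. Of the 21 spindle genes measured, 5 reached the minimum level in each stromal comparison, and all 5 were lower. These 5 (Kif20b, Racgap1, Melk, Anln and Knstrn) stood under 10 CPM in both Cre libraries. They reached the minimum on their wild-type level only and had to be lower. In the other lineages the lower and higher genes were 9 and 2 of 51 in Pdgfra-Cre endothelium (8.45% and 7.34% of all genes), 5 and 5 of 55 in Pdgfrb-Cre endothelium (7% and 7.3%), 5 and 6 of 54 in Pdgfra-Cre T-like cells (4.62% and 9.71%) and 9 and 5 of 49 in Pdgfrb-Cre T-like cells (7.34% and 5.79%). They were 2 and 7 of 44 in B-like cells (5.98% and 6.96%) and 14 and 7 of 56 in macrophage-like cells (15.7% and 13.5%). Several of these counts lie near the share over all genes, and they too hold genes that reached the minimum on 1 library only. Cks2 and the histone variant gene H2afz were among the higher genes of the Pdgfrb-Cre T-like, B-like and macrophage-like cells, with intervals above 1.

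**Figure D5:**
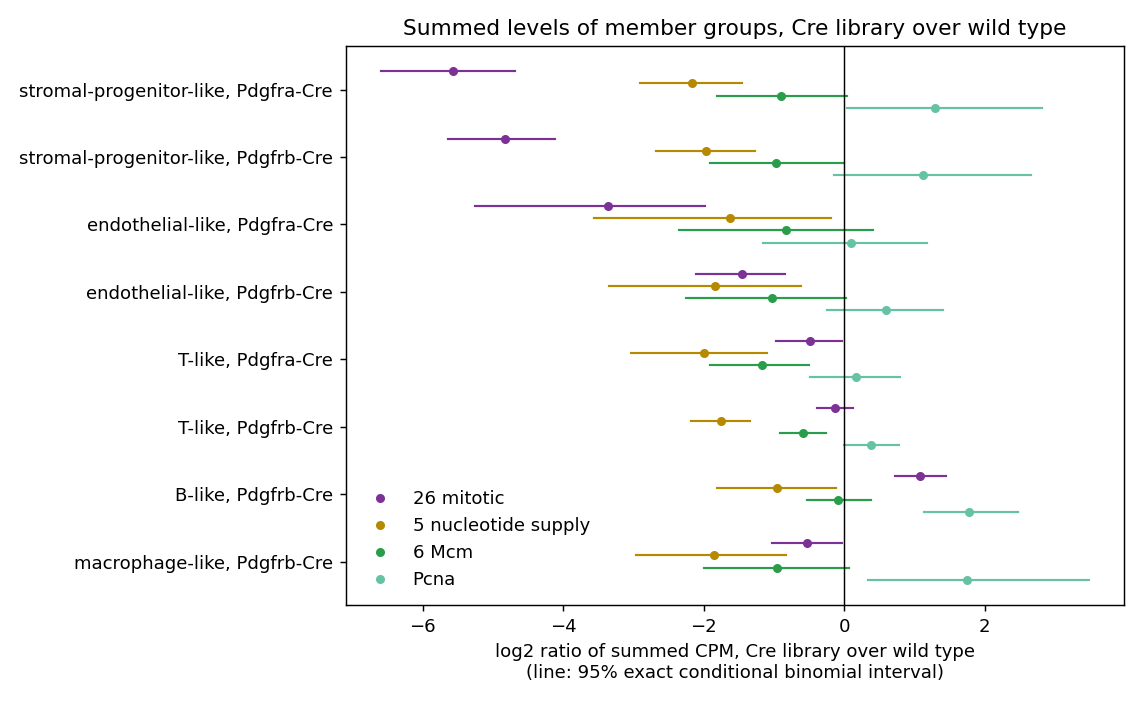
Log2 ratio of summed CPM between a Cre library and the wild type (x axis) for the mitotic, supply and Mcm genes and Pcna in each of the 8 comparisons (rows), with 95% conditional binomial lines. The mitotic points of stroma lie farthest to the left at -5.56 and -4.83, the supply lines lie left of 0 in all 8 comparisons, and the Pcna point of Pdgfra-Cre stroma lies right of 0 at 1.29.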

How the data were processed

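The authors deposited, for each of the 3 libraries, a matrix of UMI counts per gene and cell barcode. Per the submitters' processing notes these were made with Cell Ranger 3.1.0 and STAR 2.6 on mm10. The members and all gene lists were chosen with earlier results of these data known.

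Kept barcodes had 500 genes or more and no more than 15% of mitochondrial UMIs, and the highest Scrublet doublet scores (0.8% per 1000 barcodes) were left out. Cells were clustered together in scanpy 1.11.5 (2000 variable genes without the members, other cell cycle, histone, mitochondrial, ribosomal or sex-linked genes; 30 components, 15 neighbours, Leiden resolution 1) into 27 clusters, named by marker lists. Clusters with too few of a name's markers, or led by another lineage's genes, stayed unnamed (3); that rule was settled after the clusters were seen. Each cell was thinned to 1000 UMIs with a fixed seed. Counts were summed per lineage and library; CPM is per 1000000 UMIs. A ratio needed 100 thinned cells in both libraries (8 comparisons). Intervals treat UMIs as separate draws, although those of 1 cell are not independent, and are therefore too narrow. The steps were tested on simulated counts.

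Genes named per comparison are the 3 highest and 3 lowest ratios among members with at least 20 UMIs in both libraries together, with Mki67, Top2a, Mcm5 and Pcna, and members past 2-fold; exceptions are stated. In stroma, members are also named by role. Gene positions are from GENCODE M21 (GRCm38) and promoters from RefSeq (GRCm38.p6). Bases that GENCODE places inside the gene were searched but not printed. Alternatives covered thinning, cell filters, doublets, clustering, the member threshold, the added CPM, the level filter and the promoter window. Leaving out Cenpa and Kif23, and averaging each cell's level over all its UMIs, were added after seeing the data. Analyses used numpy 2.4.6, scipy 1.17.1, pandas 2.3.3 and matplotlib 3.10.9.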

Additional observations from a re-analysis of the deposited data

Results flagged for a closer look

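The summed mitotic level went in opposite directions between lineages when the Pdgfrb-Cre library was set against the wild type. The log2 ratio was 1.08 in B-like cells, against -4.83 in stroma, -1.45 in endothelium and -0.53 in macrophage-like cells, each from 1 library per genotype. The difference between the lineages was not tested. Without Cenpa and Kif23 the B-like ratio lay below 0, and without thinning the macrophage-like ratio lay above 0.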

How the results depend on the processing

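No paired analysis was possible because each genotype has 1 library. Of the alternative values for the main shares, summed ratios and counts, 132 kept their direction and size, 32 moved and 4 turned in direction; for other values 656 were kept and 227 moved. The cause of a move was not tested. The stromal contrast kept its direction in each alternative run. The wild-type stromal share (13.4%) was 6.80% with 500 UMIs (250 cells), 24.5% with 2000 UMIs (102 cells), 25.5% with the stricter cell filter (94 cells) and 8.29% with at least 5 members. The Pdgfrb-Cre stromal share was 0 with 500 UMIs, with another seed and with at least 5 members. The stromal log2 ratio was -6.62 in the Pdgfra-Cre library with the stricter filter and -6.11 in the Pdgfrb-Cre library with 2000 UMIs. The 23 lower members of each became 7 and 6 with 50 CPM added, and 4 and 3 with a minimum of 50 CPM, where fewer genes are tested. The wild-type endothelial share (4.17%) was 1.27% with 500 UMIs, 0.230% when clustered with cell cycle genes and 1.97% with at least 5 members. The Pdgfrb-Cre endothelial ratio was -0.68 without thinning and -3.25 when clustered with cell cycle genes. In T-like cells the Pdgfra-Cre ratio was 0.00626 with the stricter filter, -1.03 with doublets kept and -0.98 when clustered with cell cycle genes. The Pdgfrb-Cre ratio of T-like cells was 0.28 with 2000 UMIs, 0.98 without thinning, 0.20 with the stricter filter, -0.46 with doublets kept, -0.72 when clustered with cell cycle genes and -0.99 without Cenpa and Kif23. In B-like cells it was 0.59 without thinning and -0.41 without Cenpa and Kif23. In macrophage-like cells it was -1.40 with 500 UMIs, 0.042 with 2000 UMIs, 0.38 without thinning, -2.61 with the stricter filter, -1.81 with doublets kept, -1.90 at resolution 2 and -2.30 when clustered with cell cycle genes. Depth limits single members: in wild-type stroma most rest on under 12 UMIs.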

Other observations

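Barcodes with fewer than 500 genes, left out above, also held mitotic transcripts. Of 1200 such barcodes in the wild type 26 had at least 3 of the 26 mitotic members among all their UMIs, at a summed mitotic level of 353 CPM. The Pdgfra-Cre library had 4 of 807 at 96.0 CPM and the Pdgfrb-Cre library 0 of 207 at 186 CPM. Among the barcodes removed as doublets 1 of 60, 0 of 16 and 9 of 130 had at least 3 mitotic members before thinning.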
